A study of Mus musculus with 18 samples.

Results

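The autophagy machinery genes described here are 39 mouse genes that act in starting, extending, loading and controlling the autophagosome. They were picked by gene symbol from a count table of 54532 genes; the rule used no measured value, although earlier results of these data were known when the genes were listed. They comprise 5 genes of the ULK initiation complex, 5 of the class III phosphatidylinositol 3-kinase (PI3K) complexes, 5 of the ATG9, ATG2 and WIPI group, 11 of the conjugation systems and ATG4 proteases, 5 of the ATG8 family, 5 cargo receptors and 3 transcription factors of the MiT/TFE family. All 39 passed the expression filter that kept 14876 genes for testing, and no member had fewer than 10 counts in any library.

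The cells were plasmacytoid dendritic cells (pDCs) of wild-type C57BL/6 mice, differentiated from bone marrow for 7 days in Flt3 ligand at 80 ng/mL and enriched with beads against B220, with a purity of 80% given in the labels. Imiquimod, a small-molecule agonist of the endosomal RNA receptor TLR7, was given at 2.5 µg/mL. The groups were imiquimod at 6 h and at 16 h, each set against the vehicle of the same time, the vehicle at 0 h, and untreated cells at 0 h. There were 3 libraries of rRNA-depleted total RNA in each of the 6 groups. The vehicle is named LAL (Limulus amebocyte lysate) in the series, and all groups shared the genotype, the culture and the enrichment.

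Total counts per library lay between 10609741 and 13447018. Counts of rRNA and rRNA-like genes made up 11.8% to 12.1% of the total with imiquimod and 15.5% to 16.6% with vehicle at 6 h, and 11.9% to 13.2% with imiquimod and 16.9% to 17% with vehicle at 16 h, without overlap. Mitochondrial mRNA made up 0.37% to 0.411% with imiquimod and 0.292% to 0.507% with vehicle at 6 h, and 0.38% to 0.419% with imiquimod and 0.511% to 0.524% with vehicle at 16 h. Vehicle replicates 1 and 2 at 6 h differed most among the 18 replicate pairs, with a chi-square per degree of freedom over genes of 10.5, against 1.32 to 4.25 for the other 17, and replicate 2 had the lowest share of mitochondrial mRNA of all libraries. The part of these measures in the results was not tested. All 11 pDC markers examined, among them Siglech, Bst2 and Tcf4, were detected in every group, with a summed level of 7510 to 7640 CPM (counts scaled to library size) in untreated cells. Markers of other cell types were present too. In untreated cells those of conventional dendritic cells summed to 1560 to 1590 CPM for type 1 and 546 to 571 CPM for type 2. Monocyte and macrophage markers summed to 496 to 536 CPM and B cell markers to 92.2 to 95.2 CPM in untreated cells. Markers of T and NK cells summed to at most 4.24 CPM, those of neutrophils and mast cells to at most 2.07 CPM and those of erythroid cells to at most 2.66 CPM in any library. Whether replicate libraries are separate cultures or separate animals is not stated in the labels. The p-values therefore reflect the spread among libraries alone, and that spread may be technical. In these bulk samples, fewer cells of a type and less RNA per cell cannot be told apart.

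Macroautophagy encloses cytoplasm in a double membrane and delivers it to the lysosome. The ULK kinase complex starts the process when the kinase mTORC1 is inactive or AMPK is active, the class III PI3K complex marks the growing membrane with its lipid product, ATG9 vesicles and ATG2 supply lipid, and a pair of ubiquitin-like conjugation systems attach the ATG8 proteins (the LC3 and GABARAP subfamilies) to the membrane. Cargo receptors such as p62, the product of Sqstm1, bind both ubiquitinated cargo and the ATG8 proteins, and are degraded with the cargo. In pDCs, autophagy is known as a route by which viral RNA in the cytosol reaches endosomes that hold TLR7.

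Upstream sequences were looked up for the members in the RefSeq table of the GRCm38.p6 assembly, in windows from 250 bases before to 50 bases after each transcript start. Of the 39 members, 33 matched, with 42 windows. The 250 bases before the start are shown for Sqstm1 and Optn, which had the largest rises with imiquimod at 6 h, for Calcoco1 and Ulk2, which had the largest falls after Atg16l2 at both times, and for Atg3, the only matched member with the extended CLEAR box. Each is read 5′ to 3′ on the strand of the gene, and capitals mark a motif that was searched.
Sqstm1, chr11:50210821-50211070, minus strand: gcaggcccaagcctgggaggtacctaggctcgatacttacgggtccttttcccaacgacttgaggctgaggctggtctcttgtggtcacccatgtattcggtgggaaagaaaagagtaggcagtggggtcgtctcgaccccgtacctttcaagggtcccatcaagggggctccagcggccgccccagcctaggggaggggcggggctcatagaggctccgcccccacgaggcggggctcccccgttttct
Optn, chr2:5064118-5064367, minus strand: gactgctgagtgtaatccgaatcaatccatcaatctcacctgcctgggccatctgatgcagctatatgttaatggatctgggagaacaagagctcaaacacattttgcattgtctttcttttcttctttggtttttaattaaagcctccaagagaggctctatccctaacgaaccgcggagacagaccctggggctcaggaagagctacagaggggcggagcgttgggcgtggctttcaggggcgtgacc
Calcoco1, chr15:102722179-102722428, minus strand: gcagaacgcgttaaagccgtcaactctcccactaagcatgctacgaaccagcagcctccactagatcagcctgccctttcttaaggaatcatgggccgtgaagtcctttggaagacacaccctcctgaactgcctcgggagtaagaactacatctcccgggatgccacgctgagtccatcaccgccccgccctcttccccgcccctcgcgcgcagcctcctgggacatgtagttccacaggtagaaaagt
Ulk2, chr11:61855093-61855342, minus strand: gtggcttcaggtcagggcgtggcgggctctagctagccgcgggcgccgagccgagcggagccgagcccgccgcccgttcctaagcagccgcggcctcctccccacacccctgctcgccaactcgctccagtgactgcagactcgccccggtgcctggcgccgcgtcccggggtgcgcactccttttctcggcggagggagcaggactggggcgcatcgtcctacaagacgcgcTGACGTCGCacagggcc
Atg3, chr16:45158579-45158828, plus strand: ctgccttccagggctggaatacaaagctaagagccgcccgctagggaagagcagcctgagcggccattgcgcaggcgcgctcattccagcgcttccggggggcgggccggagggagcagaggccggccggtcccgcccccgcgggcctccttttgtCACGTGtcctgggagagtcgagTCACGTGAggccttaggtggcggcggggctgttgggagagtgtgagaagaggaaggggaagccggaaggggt

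The motif CACGTG is the E-box core of the CLEAR element through which TFEB, TFE3 and MITF act. It occurred in 4 of the 42 member windows, those of Atg14, Atg3, Atg5 and Atg7, and in 7.15% of all 32851 windows. These windows of Atg7 and Atg14 lie wholly inside the GENCODE span of their gene. The longer TCACGTGA, which contains CACGTG, occurred in Atg3 alone among the members and in 0.974% of all windows. The antioxidant response element core TGACNNNGC lay in 5 of the 42 member windows, of Atg13, Map1lc3b, Mitf, Tax1bp1 and Ulk2, and in 12.4% of all windows. TGACGTCA, the cAMP response element, lay in 3 of the 42 member windows, of Atg16l2, Atg5 and Mitf, and in 1.79% of all windows. In Atg16l2 it began at position -18 from the RefSeq start. GAAA followed after 2 bases of any kind by GAAA, a core of the interferon-stimulated response element, was in the window of Nbr1 only among the members, and in 3.44% of all windows. The NF-kappaB motif, GGGA and TTTCC with 1 base of any kind between them, was in no member window and in 0.411% of all windows. Both strands were searched. Windows of the members had a median GC content of 59.7%, against 52.7% for all windows. A match is a description of the letters and not evidence of a bound site.

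At 6 h of imiquimod, most of the machinery genes were lower than in vehicle cells, while a small group that includes the cargo receptor genes Optn and Sqstm1 and the ATG8 family genes Map1lc3a and Gabarap was higher. A gene was called where the adjusted p of edgeR's quasi-likelihood test, corrected over all 14876 genes by the Benjamini-Hochberg method, was under 0.05. By that rule 26 of the 39 members fell (66.7%), against 39.2% of all genes tested, and 8 rose (20.5%), against 37.7% of all genes. The other 5 were not called. The median log2 fold change of the members was -0.69, beside -0.037 for all genes. Of the 39, 14 changed at least 2-fold (35.9%), against 35.5% of all genes. The libraries of the 2 groups did not overlap for 26 members on the lower side and 8 on the higher side, where this held for 39.1% of all genes on the lower side and 37.5% on the higher side. Without vehicle replicate 1 at 6 h 25 fell and 8 rose, and without vehicle replicate 2 26 fell and 8 rose.

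At 16 h of imiquimod, most members were again lower than in vehicle cells, and fewer changed at least 2-fold than at 6 h. At that time 31 members fell (79.5%), against 38.1% of all genes, and 4 rose (10.3%), against 39.1%. Of the 39, 7 changed at least 2-fold (17.9%), against 33.4% of all genes. The groups did not overlap for 31 members on the lower side, against 38.7% of all genes, and for 4 on the higher side, against 40% of all genes. The median was -0.42 for the members and -0.0033 for all genes. The 4 that rose at 16 h, Becn1, Gabarap, Optn and Sqstm1, were also higher at 6 h, and 25 members were lower at both times. The share of all genes lower at both times was not counted, so the 25 has no background beside it.

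The scaling of the libraries bears on these counts. The TMM factors, which correct for the composition of a library, were 0.817 to 0.837 in the imiquimod libraries at 6 h, below all other libraries, which lay at 1.01 to 1.07. With scaling by library totals in place of TMM, the median of all genes moved by -0.35 at 6 h, the share of called genes that were higher was 31.1% in place of 49%, and 23 members in place of 14 changed at least 2-fold. By library totals 31 members fell at 6 h, against 55.3% of all genes, and 7 rose, against 24.9%, while at 16 h 31 fell and 4 rose as with TMM, so that the numbers that fell at 6 h and at 16 h were equal. The directions given for members below held under that scaling except where stated.

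Markers of other cell types moved with imiquimod too. All 8 of 8 conventional type 1 dendritic cell (cDC1) markers were called lower at 6 h and 7 of 8 at 16 h, and their summed level was 548 to 578 CPM with imiquimod at 6 h, against 1380 to 1400 CPM in vehicle cells, and 503 to 538 CPM with imiquimod at 16 h, against 1200 to 1250 CPM. Of the 7 cDC2 markers 4 were lower and 2 higher at 6 h, and 4 lower and 1 higher at 16 h. They summed to 357 to 363 CPM with imiquimod, against 397 to 410 CPM with vehicle at 6 h, and to 220 to 226 CPM with imiquimod, against 385 to 390 CPM with vehicle at 16 h, where Cd209a was at 0 with imiquimod. Of the 8 monocyte and macrophage markers 6 were tested, of which 3 were lower and 3 higher at 6 h, and 4 lower and 2 higher at 16 h. They summed to 183 to 186 CPM with imiquimod and 344 to 391 CPM with vehicle at 6 h, and to 71.7 to 87.9 CPM with imiquimod and 348 to 360 CPM with vehicle at 16 h. Of the 6 B cell markers 5 were tested, of which 2 were higher and 3 lower at 6 h, and 1 higher and 4 lower at 16 h. Their sum was higher, at 162 to 174 CPM with imiquimod and 81.2 to 90.8 CPM with vehicle at 6 h, and at 176 to 187 CPM with imiquimod and 88 to 111 CPM with vehicle at 16 h. Of the 11 pDC markers 5 were higher and 6 lower at 6 h, and 1 was higher and 8 lower at 16 h. They summed to 6220 to 6460 CPM with imiquimod, against 7350 to 7510 CPM with vehicle at 6 h, and to 4350 to 4430 CPM with imiquimod, against 8970 to 9080 CPM with vehicle at 16 h. The part of these markers in the changes of the autophagy genes was not tested.

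**Figure D1:**
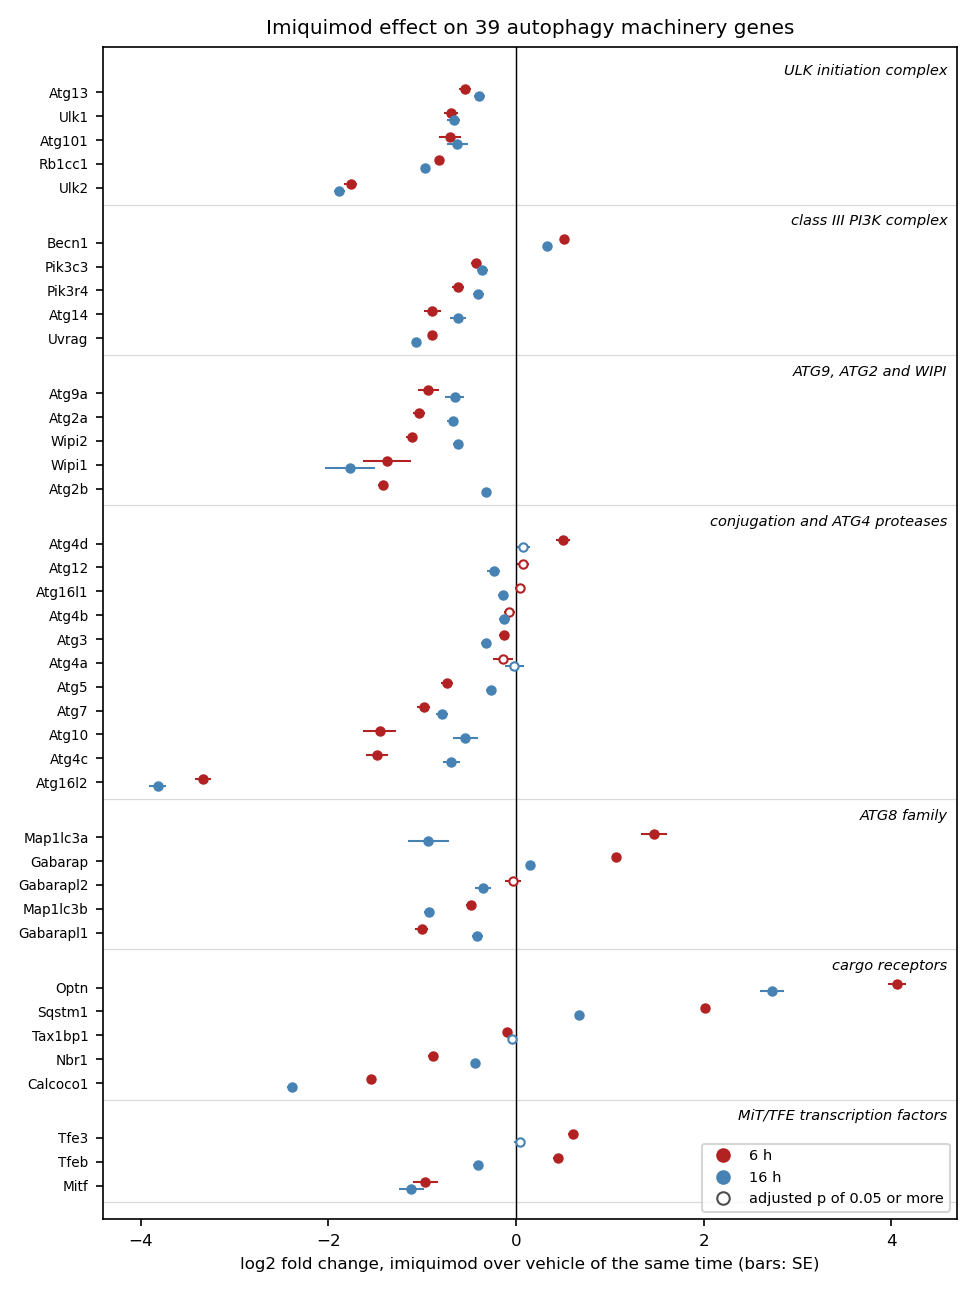
Log2 fold change of imiquimod over the vehicle of the same time for each of the 39 genes, by role, at 6 h and 16 h, with bars of 1 standard error and open points for genes that were not called. Optn lies farthest to the right, at 4.06 at 6 h and 2.73 at 16 h, and Atg16l2 farthest to the left, at -3.34 and -3.82.

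All 5 genes of the ULK initiation complex were lower at both times, where 39.2% of all genes were lower at 6 h and 38.1% at 16 h. Ulk2, which encodes a protein kinase that shares the role of ULK1, had 20.98, 23.5 and 25.2 CPM in the imiquimod libraries at 6 h, against 81.5, 74.5 and 80.7 CPM in the vehicle libraries. At 16 h it had 25.5, 27.3 and 22.8 CPM with imiquimod, against 90.9, 98.7 and 90.1 CPM with vehicle. Every imiquimod library was far below every vehicle library, and the imiquimod libraries of the 2 times overlapped. By library totals they did not, at 17.6 to 20.6 CPM at 6 h and 22.96 to 27.8 CPM at 16 h. The log2 fold change of Ulk2 (ENSMUSG00000004798.14, chromosome 11) was -1.76 ± 0.067 (SE, n = 3 per group, edgeR adjusted p = 1.06e-37) at 6 h and -1.88 ± 0.062 (adjusted p = 1.12e-41) at 16 h. The change of Ulk1, the better studied kinase of the pair, was smaller, at -0.69 and -0.66. Rb1cc1, which encodes the scaffold FIP200, changed by -0.82 at 6 h and -0.97 at 16 h. Of its 75-base exon windows 1.61% also occur in the gene model Gm13961, and exons of 4732440D04Rik, with 2952 counts over all libraries, overlap 3.80% of its exon length on the other strand. Atg13 and Atg101, the adaptor subunits, lay between -0.70 and -0.39 at both times.

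Of the class III PI3K genes, 4 of 5 were lower at both times and Becn1 was higher. Among all genes 39.2% were lower at 6 h and 38.1% at 16 h. Becn1, which encodes the scaffold Beclin 1, had 134, 140 and 142 CPM with imiquimod at 6 h, against 95.4, 102 and 94.9 CPM with vehicle, and 120, 116 and 117 CPM with imiquimod at 16 h, against 90.7, 92.3 and 97.3 CPM with vehicle. The groups did not overlap at either time, and the rise was modest, at 0.51 ± 0.042 (edgeR adjusted p = 1.49e-18) and 0.33 ± 0.043 (adjusted p = 1.06e-10). By library totals it was 0.16 at 6 h (adjusted p = 0.000516) and 0.32 at 16 h, so the order of the 2 times turned. Exons of Cntd1 on the other strand overlap 43.9% of the exon length of Becn1, and Cntd1 had 246 counts over all libraries.

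Uvrag, which encodes the Beclin 1 partner of the endosomal complex, had 179, 200 and 190 CPM with imiquimod at 6 h, against 357, 348 and 354 CPM with vehicle. At 16 h it had 180, 189 and 192 CPM with imiquimod, against 399, 392 and 383 CPM with vehicle. The imiquimod libraries of the 2 times overlapped and lay below all vehicle libraries, with log2 fold changes of -0.90 ± 0.036 (edgeR adjusted p = 4.3e-37) and -1.07 ± 0.035 (adjusted p = 1.19e-42). By library totals the imiquimod libraries did not overlap, at 149 to 164 CPM at 6 h and 183 to 193 CPM at 16 h. Exons of Gm45187, with 5 counts over all libraries, overlap 17.6% of its exon length on the other strand. Atg14, the partner that directs the complex to autophagosome formation, fell by 0.89 and 0.62 on the log2 scale at 6 h and 16 h. Pik3c3, the lipid kinase VPS34, and Pik3r4, its regulatory subunit VPS15, changed by -0.43 and -0.62 at 6 h and by -0.36 and -0.41 at 16 h.

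The genes that supply and shape the membrane were all lower at both times, where 39.2% of all genes were lower at 6 h and 38.1% at 16 h. At 6 h 4 of the 5 fell at least 2-fold, as did 2867 of all 14876 genes. Atg2b, which encodes a bridge-like lipid transfer protein, had 41.6, 39.4 and 40.8 CPM with imiquimod at 6 h, against 113, 108 and 104 CPM with vehicle. By 16 h it had 95.4, 97.0 and 87.7 CPM with imiquimod, against 116, 118 and 117 CPM with vehicle. The gap was wide at 6 h and narrow at 16 h, and the groups did not overlap at either time. Its log2 fold change was -1.41 ± 0.053 (edgeR adjusted p = 2e-39) at 6 h and -0.32 ± 0.045 (adjusted p = 7.68e-10) at 16 h. Of its exon windows 2.31% also occur in other genes, and exons of Gskip, with 3485 counts, overlap 2.85% of its exon length on the other strand.

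Atg2a, the paralog of Atg2b, had 31.3, 28.2 and 30.2 CPM with imiquimod at 6 h, against 60.3, 62.9 and 60.3 CPM with vehicle, and 35.3, 37.9 and 38.7 CPM with imiquimod at 16 h, against 58.9, 57.5 and 62.0 CPM with vehicle. Wipi2, which encodes a PI3P-binding protein that recruits ATG16L1, had 34.8, 36.9 and 34.0 CPM with imiquimod at 6 h, against 76.0, 75.7 and 77.1 CPM with vehicle, and 43.9, 42.7 and 45.1 CPM with imiquimod at 16 h, against 69.4, 63.7 and 69.4 CPM with vehicle. Both genes were separated from vehicle at both times, by -1.03 and -1.11 on the log2 scale at 6 h and by -0.68 and -0.62 at 16 h. Wipi1, the related PI3P-binding protein, was a low gene, at 1.08, 1.26 and 1.18 CPM with imiquimod at 6 h, against 3.27, 2.70 and 3.20 CPM with vehicle, and at 0.877, 0.751 and 0.882 CPM with imiquimod at 16 h, against 2.48, 3.19 and 2.96 CPM with vehicle. It fell by 1.37 ± 0.256 (edgeR adjusted p = 1.64e-06) and by 1.77 ± 0.267 (adjusted p = 9.55e-09), without overlap of the groups. Atg9a, the lipid scramblase of the seed vesicles, fell by 0.93 and 0.65, and 28.8% of its exon windows also occur in other genes, among them the gene model Gm29253.

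The conjugation genes split between one member with the largest fall of all 39 and several that barely moved. Atg16l2 (ENSMUSG00000047767.17, chr7:101263034-101302251, minus strand), a paralog of Atg16l1 whose product binds the ATG12-ATG5 conjugate but is not known to replace ATG16L1, had 6.47, 6.87 and 5.11 CPM with imiquimod at 6 h, against 64.2, 62.2 and 60.4 CPM with vehicle. At 16 h the values were 4.53, 4.13 and 5.29 CPM with imiquimod, against 70.7, 64.8 and 61.5 CPM with vehicle. No library came near those of the other treatment, and the fall was 10.1-fold at 6 h and 14.1-fold at 16 h. On the log2 scale this was -3.34 ± 0.089 (edgeR adjusted p = 2.12e-49) and -3.82 ± 0.088 (adjusted p = 1.31e-53). Atg16l1 itself, which places the conjugation complex on the membrane, had 65.5, 70.4 and 68.1 CPM with imiquimod at 6 h, against 72.0, 65.1 and 61.3 CPM with vehicle, and was not called (0.04, adjusted p = 0.511, and -0.31 under scaling by library totals). At 16 h it was 60.3 to 63.7 CPM with imiquimod and 63.3 to 70.3 CPM with vehicle, a change of -0.14 (adjusted p = 0.0149) that lost its call without vehicle replicate 1 (-0.10), vehicle replicate 2 (-0.11) or imiquimod replicate 3 (-0.12).

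Atg4c, a cysteine protease that processes ATG8 proteins, had 7.84, 6.00 and 7.95 CPM with imiquimod at 6 h, against 21.9, 19.4 and 19.6 CPM with vehicle, and 13.2, 16.2 and 12.7 CPM with imiquimod at 16 h, against 20.3, 23.8 and 23.8 CPM with vehicle. Atg10, the E2-like enzyme that joins ATG12 to ATG5, had 4.02, 2.71 and 2.16 CPM with imiquimod at 6 h, against 8.01, 7.17 and 9.27 CPM with vehicle, and 6.58, 7.44 and 6.41 CPM with imiquimod at 16 h, against 8.73, 11.5 and 9.48 CPM with vehicle. Both were below vehicle at both times, with the wider gap at 6 h. Atg4c changed by -1.48 ± 0.114 (edgeR adjusted p = 2.45e-20) at 6 h and by -0.69 ± 0.094 (adjusted p = 4.78e-10) at 16 h, and Atg10 by -1.45 ± 0.177 (adjusted p = 1.2e-11) and -0.54 ± 0.136 (adjusted p = 0.000255).

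Among the other conjugation genes, Atg7, the E1-like enzyme of both systems, fell by 0.99 and 0.79 at 6 h and 16 h, and Atg5, the acceptor of ATG12, fell by 0.74 and 0.27. Atg3, the E2-like enzyme for ATG8 proteins, changed by -0.13 (adjusted p = 0.034) at 6 h, a call that was lost without vehicle replicate 1 (-0.08) or without imiquimod replicate 1 (-0.11) or 3 (-0.10) and in DESeq2 (-0.10), and by -0.32 at 16 h. By library totals the 6 h value of Atg3 was -0.48 (edgeR adjusted p = 7.25e-12). Atg12, the ubiquitin-like modifier, was not called at 6 h (0.08, and -0.27 under scaling by library totals) and fell by 0.24 at 16 h. The ATG4 proteases did not move alike. Atg4d rose by 0.50 ± 0.072 at 6 h (edgeR adjusted p = 2.18e-09), which was 0.15 by library totals (adjusted p = 0.0487), and was not called at 16 h (0.07). Exons of Kri1 overlap it on the other strand over 19.3% of its exon length, and Kri1 had 8816 counts over all libraries, against 5637 for Atg4d. Atg4a was called at neither time with TMM (-0.14 and -0.02), but was lower at 6 h by library totals (-0.49, edgeR adjusted p = 5.18e-05). Of its windows 41.3% also occur in the pseudogene Atg4a-ps. Atg4b had -0.07 at 6 h, not called with TMM but lower by library totals (-0.42, edgeR adjusted p = 6.02e-10). At 16 h it had -0.12 with an adjusted p of 0.0367. That call was lost without vehicle replicate 2 (-0.13) or 3 (-0.09) and without imiquimod replicate 1 (-0.12) or 3 (-0.12). It was also lost with no filter on low counts (-0.12) and in DESeq2 (-0.13).

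The ATG8 family split at 6 h, with 2 genes higher, 2 lower and 1 not called with TMM, and at 16 h 4 of the 5 were lower. Among all genes 37.7% were higher and 39.2% lower at 6 h, and 38.1% were lower at 16 h. Gabarap (ENSMUSG00000018567.14, chromosome 11) had 299, 319 and 317 CPM in the imiquimod libraries at 6 h, against 140, 149 and 158 CPM in the vehicle libraries. At 16 h it had 173, 162 and 167 CPM with imiquimod, against 147, 158 and 149 CPM with vehicle. The groups were far apart at 6 h and close at 16 h, where the lowest imiquimod library stood just above the highest vehicle library. The log2 fold change was 1.07 ± 0.038 (edgeR adjusted p = 2.91e-40) at 6 h and 0.15 ± 0.040 (adjusted p = 0.000806) at 16 h. By library totals it was 0.72 (edgeR adjusted p = 9.46e-29) at 6 h and 0.13 (adjusted p = 0.002) at 16 h.

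Map1lc3a, which encodes LC3A, went in opposite directions at the 2 times. It had 15.3, 13.8 and 16.5 CPM with imiquimod at 6 h, against 3.73, 6.94 and 5.75 CPM with vehicle, and 1.97, 2.03 and 2.72 CPM with imiquimod at 16 h, against 5.05, 3.64 and 4.18 CPM with vehicle. All imiquimod libraries were above vehicle at 6 h and all were below it at 16 h. The change was 1.47 ± 0.142 (edgeR adjusted p = 6.38e-15) at 6 h and -0.94 ± 0.220 (adjusted p = 0.000113) at 16 h. Map1lc3b, which encodes LC3B, the usual marker of autophagosomes, was lower at both times, with 63.9, 65.4 and 63.0 CPM with imiquimod at 6 h, against 85.2, 92.2 and 91.5 CPM with vehicle, and 43.6, 42.5 and 47.9 CPM with imiquimod at 16 h, against 81.6, 85.6 and 87.5 CPM with vehicle. Its groups did not overlap, and the log2 fold changes were -0.48 ± 0.051 (edgeR adjusted p = 3.53e-14) and -0.93 ± 0.052 (adjusted p = 8.1e-28). Of its exon windows 4.07% also occur in other genes.

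Gabarapl1, a GABARAP paralog, had 24.2, 26.3 and 24.3 CPM with imiquimod at 6 h, against 49.0, 50.8 and 50.6 CPM with vehicle, and 40.3, 39.3 and 35.2 CPM with imiquimod at 16 h, against 53.2, 51.5 and 48.6 CPM with vehicle. It stayed below vehicle in every library, by -1.01 ± 0.066 (edgeR adjusted p = 4.86e-24) and -0.42 ± 0.059 (adjusted p = 1.88e-09). Exons of 1700101I11Rik, with 34 counts over all libraries, overlap 28.3% of its exon length on the other strand. Gabarapl2, the remaining paralog, was not called at 6 h (-0.03) and fell by 0.35 at 16 h (adjusted p = 0.000202). By library totals its 6 h value was -0.38 and was called lower (edgeR adjusted p = 2.17e-05). Of its windows 9.53% also occur elsewhere among the exons.

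**Figure D2:**
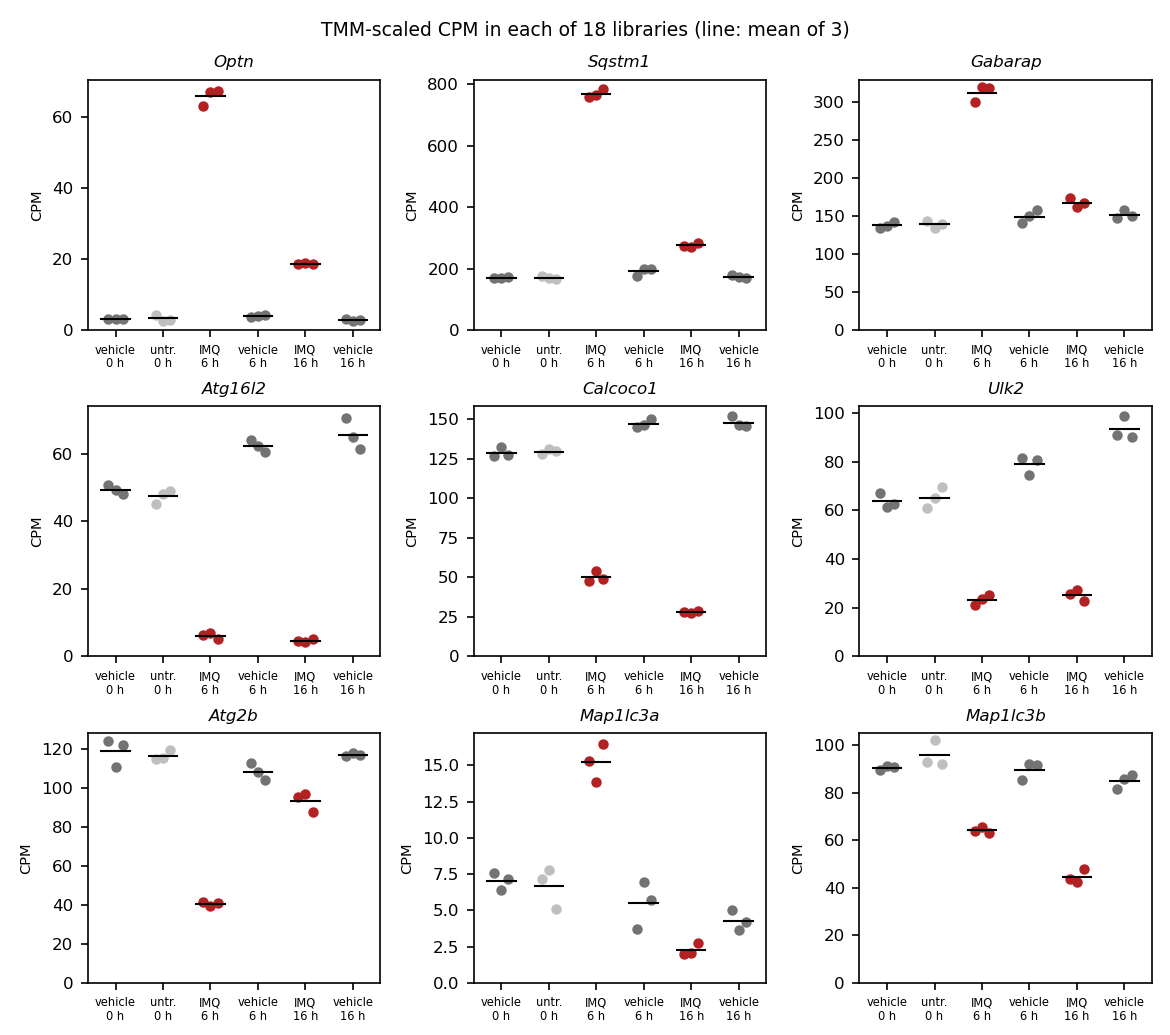
TMM-scaled CPM in each of the 18 libraries for 9 of the genes, with a line at the mean of 3, at 0 h (vehicle, then untreated), 6 h and 16 h (imiquimod, then vehicle). Optn, Sqstm1, Gabarap and Map1lc3a peak with imiquimod at 6 h, while Atg16l2, Calcoco1 and Ulk2 are low with imiquimod at both times.

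The cargo receptors held the largest rises. Optn (ENSMUSG00000026672.11, chr2:5020642-5064051, minus strand) encodes optineurin, a receptor for damaged mitochondria and bacteria that also binds the kinase TBK1. It had 63.0, 66.9 and 67.1 CPM with imiquimod at 6 h, against 3.66, 3.86 and 4.27 CPM with vehicle. At 16 h it had 18.5, 18.7 and 18.5 CPM with imiquimod, against 3.12, 2.48 and 2.78 CPM with vehicle. The imiquimod libraries were far above vehicle at both times and higher at 6 h than at 16 h. The rise was 16.7-fold at 6 h (log2 4.06 ± 0.097, edgeR adjusted p = 1.39e-52) and 6.63-fold at 16 h (2.73 ± 0.132, adjusted p = 6.02e-32).

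Sqstm1 (ENSMUSG00000015837.15, chr11:50199366-50210827, minus strand) encodes p62, which gathers ubiquitinated proteins and also acts as a signalling scaffold. It had 758, 767 and 783 CPM with imiquimod at 6 h, against 176, 198 and 200 CPM with vehicle. At 16 h it had 274, 269 and 282 CPM with imiquimod, against 179, 174 and 168 CPM with vehicle. The groups were separate at both times, by 4.03-fold at 6 h (log2 2.01 ± 0.036, edgeR adjusted p = 1.22e-61) and by 1.59-fold at 16 h (0.67 ± 0.037, adjusted p = 5.57e-28). Exons of Mrnip, on the other strand, overlap 17.3% of its exon length and had 546 counts over all libraries.

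Calcoco1 (ENSMUSG00000023055.10, chr15:102706777-102722178, minus strand), which encodes a receptor for the endoplasmic reticulum and Golgi, moved the other way. It had 47.8, 54.3 and 48.9 CPM with imiquimod at 6 h, against 145, 146 and 150 CPM with vehicle, and 28.1, 27.6 and 28.9 CPM with imiquimod at 16 h, against 152, 146 and 146 CPM with vehicle. Each imiquimod library was under all vehicle libraries, and the level with imiquimod was lower at 16 h than at 6 h. The log2 fold changes were -1.55 ± 0.046 (edgeR adjusted p = 9.87e-46) and -2.39 ± 0.049 (adjusted p = 7.28e-57). Nbr1, a receptor that works with p62, fell by 0.89 and 0.44 at the 2 times. Tax1bp1, a receptor for protein aggregates, was near vehicle with TMM. It had 215, 215 and 215 CPM with imiquimod at 6 h, against 236, 221 and 232 CPM with vehicle. The change was -0.09 (edgeR adjusted p = 0.0118) at 6 h, which was not called in DESeq2 (-0.07). At 16 h it was -0.04 (edgeR adjusted p = 0.23), called when only the groups compared were fitted (-0.06). By library totals the 6 h value of Tax1bp1 was -0.44 (edgeR adjusted p = 1.64e-19). On that scale it had 176 to 180 CPM with imiquimod at 6 h, against 231 to 251 CPM with vehicle.

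The MiT/TFE factors, which switch on autophagy and lysosome genes, also split. Mitf had 5.59, 5.32 and 6.48 CPM with imiquimod at 6 h, against 11.1, 12.96 and 9.85 CPM with vehicle, and 6.07, 4.73 and 5.29 CPM with imiquimod at 16 h, against 10.2, 11.3 and 13.5 CPM with vehicle. It was below vehicle in every library, by -0.97 ± 0.137 (edgeR adjusted p = 1.84e-09) and -1.12 ± 0.133 (adjusted p = 5.74e-12). Tfeb, the factor most tied to the CLEAR network, had 78.0, 79.4 and 77.7 CPM with imiquimod at 6 h, against 56.5, 58.5 and 57.1 CPM with vehicle, and 48.0, 44.2 and 42.5 CPM with imiquimod at 16 h, against 59.8, 59.1 and 59.4 CPM with vehicle. It was above vehicle at 6 h and below it at 16 h, by 0.45 ± 0.051 (edgeR adjusted p = 1.14e-12) and -0.40 ± 0.054 (adjusted p = 3.53e-10). Under scaling by library totals the 6 h value of Tfeb was 0.10, with an adjusted p of 0.0693. Tfe3 had 77.7, 73.3 and 69.5 CPM with imiquimod at 6 h, against 50.2, 48.6 and 45.9 CPM with vehicle, a rise of 0.61 ± 0.056 (adjusted p = 1.38e-16) that was 0.26 by library totals, and was not called at 16 h (0.04, adjusted p = 0.545).

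Whether the effect of imiquimod differed between the times was tested as an interaction, the log2 fold change at 16 h minus that at 6 h. The effect was more positive at 16 h for 9 members, against 28.5% of all genes, and more negative for 17, against 28.4% of all genes. The other 13 were not called. The difference was at least 2-fold for 4 members (10.3%), against 18.5% of all genes. They were Map1lc3a (-2.41 ± 0.262, edgeR adjusted p = 1.89e-12), Sqstm1 (-1.34 ± 0.052, adjusted p = 2.94e-37), Optn (-1.33 ± 0.209, adjusted p = 5.63e-08) and Atg2b (1.09 ± 0.070, adjusted p = 4.26e-24). Of the genes raised at 6 h, Gabarap (-0.92), Tfeb (-0.85) and Tfe3 (-0.57) also had a smaller or opposite effect at 16 h. For Atg10 (0.91), Atg4c (0.79) and Gabarapl1 (0.59), which were lower at both times, the effect at 16 h was nearer to 0, while for Calcoco1 (-0.84) it was farther from 0. Under scaling by library totals the median difference of all genes moved by 0.333, and the share of called genes with a positive difference was 75.5% in place of 50.1%. By library totals 23 members were more positive, against 46.7% of all genes, and 7 were more negative, against 15.2%. The 11 differences just named, all of at least 0.5 in size, kept their sign and their call under that scaling.

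**Figure D3:**
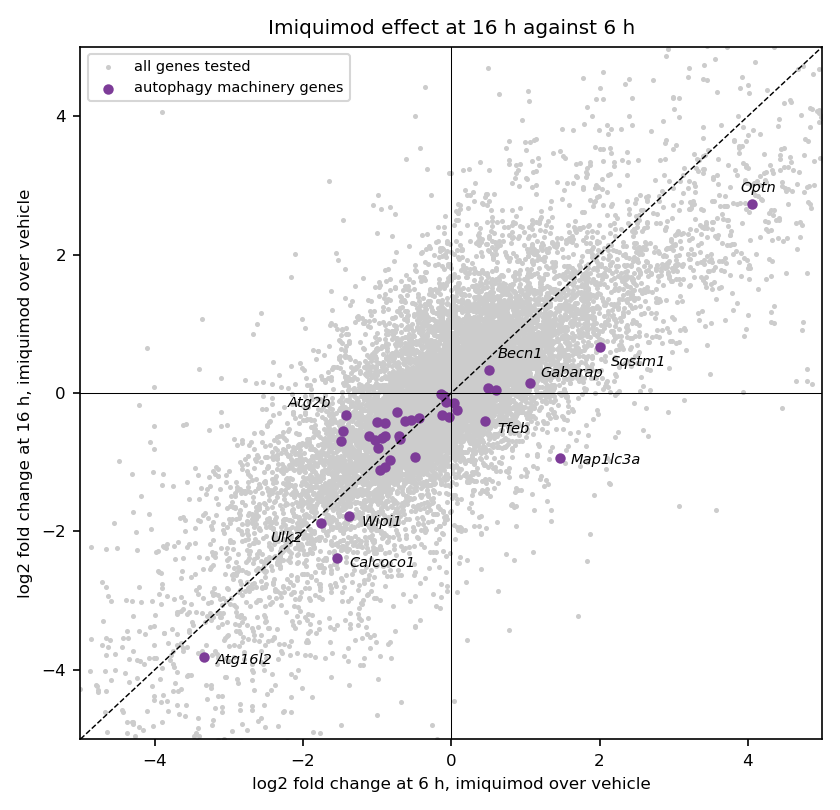
Log2 fold change of imiquimod over vehicle at 16 h (vertical) against that at 6 h (horizontal), for the 39 genes in purple and all tested genes within the axes in grey, with a dashed line of equal effect. Sqstm1, Gabarap, Tfeb and Map1lc3a lie well under the line and Atg2b above it, while Ulk2 is close to it.

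Summed over the 39 genes, the level with imiquimod at 6 h was 2793 to 2874 CPM, against 2782 to 2828 CPM with vehicle, so the groups overlapped although most members fell. Under scaling by library totals they did not overlap, at 2322 to 2361 CPM with imiquimod and 2936 to 2964 CPM with vehicle. Sqstm1 and Gabarap together made up 37.8% to 38.7% of that sum with imiquimod, against 11.4% to 12.6% with vehicle. At 16 h the sum was 2131 to 2148 CPM with imiquimod, against 2850 to 2866 CPM with vehicle, with no overlap, and the 2 genes held 20.2% to 20.9% of it, against 11.1% to 11.6%. By role, the summed level of the cargo receptors was 1156 to 1189 CPM with imiquimod at 6 h, against 688 to 725 CPM with vehicle, and 641 to 658 CPM with imiquimod at 16 h, against 685 to 707 CPM with vehicle. The ULK genes summed to 172 to 184 CPM with imiquimod at 6 h, against 325 to 344 CPM with vehicle, and to 180 to 190 CPM with imiquimod at 16 h, against 355 to 380 CPM with vehicle. The summed receptor level was thus above vehicle at 6 h and below it at 16 h, although 3 of the 5 receptors fell at 6 h and Optn and Sqstm1 were above vehicle at 16 h.

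Levels of different genes were compared in CPM per kilobase of merged exons. On this scale Sqstm1 was the highest of the 39 genes with imiquimod at 6 h, at 229 ± 3.82 (SD, n = 3), followed by Gabarap at 169 ± 5.93. In vehicle cells at 6 h the order was Gabarap at 80.8 ± 4.81, Sqstm1 at 57.0 ± 3.88 and Uvrag at 39.1 ± 0.519, and the SDs of these neighbours did not overlap. Optn was the lowest but one of the 39 genes in vehicle cells at 6 h, at 1.05 ± 0.083, and the lowest in vehicle cells at 0 h, at 0.831 ± 0.021, but ranked 7 with imiquimod at 6 h, at 17.5 ± 0.607. Atg16l2 had 0.726 ± 0.109 with imiquimod at 6 h, against 7.35 ± 0.222 with vehicle. Wipi1 was the lowest member in the imiquimod groups at both times, at 0.266 ± 0.021 at 6 h and 0.190 ± 0.017 at 16 h.

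Time in vehicle alone moved the members by less than 2-fold, although many were called. Of the 39 members 0 were called with a 2-fold change at 6 h or at 16 h of vehicle against 0 h, beside 7.43% and 11.8% of all genes. At 16 h this count was 1 without vehicle replicate 2 at 0 h or without vehicle replicate 1 at 16 h. At 6 h of vehicle 16 members were higher than in vehicle cells at 0 h, against 26% of all genes, and 8 were lower, against 26.9%. At 16 h of vehicle 15 were higher, against 28.4% of all genes, and 6 were lower, against 30%. Atg4c had the largest change, with 10.8 to 12.4 CPM at 0 h, 19.4 to 21.9 CPM at 6 h and 20.3 to 23.8 CPM at 16 h of vehicle, or 0.80 ± 0.098 (edgeR adjusted p = 7.44e-11) and 0.95 ± 0.098 (adjusted p = 6.42e-14) above 0 h. Its level with imiquimod at 16 h, 12.7 to 16.2 CPM, was thus above the vehicle at 0 h although below the vehicle at 16 h. By library totals it overlapped the vehicle at 0 h, at 12.7 to 16.5 CPM against 11.4 to 13.2 CPM, and those groups were not tested against each other. Tfeb rose by 0.49 and 0.54 and Ulk2 by 0.31 and 0.55 over the same times, while Tax1bp1 fell by 0.46 and 0.43 and Gabarapl1 by 0.49 and 0.46.

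No difference was called between vehicle cells at 0 h and untreated cells at 0 h. Of the 39 members 0 were called by edgeR or by DESeq2, against 0% of all genes. An unadjusted p under 0.05 was found for 4 members in edgeR, and for 708 of the 14876 genes in edgeR and 347 in DESeq2. Optn, for example, had 3.10, 3.21 and 3.05 CPM in vehicle cells and 4.14, 2.62 and 2.92 CPM in untreated cells.

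Lists of neighbouring pathway genes were counted in the same way, and members among their 4 largest changes are named. The lists were counted with TMM only. Scaling by library totals moved the median of all genes by -0.35 at 6 h, so the 6 h counts and medians of these lists may depend on the scaling. Of 15 tested mitophagy and ER-phagy genes 12 were lower at 6 h and the other 3 were not called, and at 16 h 2 were higher and 9 were lower, with medians of -0.52 and -0.50. The share lower was 80% at 6 h and 60% at 16 h, against 39.2% and 38.1% of all genes. The share higher was 0% and 13.3%, against 37.7% and 39.1%. Bnip3l, the mitophagy receptor NIX, had 14.97 ± 1.47 CPM with imiquimod at 6 h and 95.6 ± 2.62 CPM with vehicle (SD, n = 3 each), and changed by -2.67 at 6 h and -1.79 at 16 h. Pink1, the kinase that marks damaged mitochondria, changed by -2.47 and -2.43, and Ccpg1, an ER-phagy receptor, by -3.94 and -2.90.

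Of 22 other genes of autophagosome formation and fusion, 11 were higher and 9 lower at 6 h, and 7 were higher and 11 lower at 16 h, with medians of 0.12 and -0.26. At 6 h these were 50% higher and 40.9% lower, against 37.7% and 39.2% of all genes, and at 16 h 31.8% and 50%, against 39.1% and 38.1%. Trp53inp2, which encodes an ATG8-binding protein, rose by 3.78 at 6 h and 2.15 at 16 h, while its relative Trp53inp1 fell by 3.03 and 2.24. Trp53inp2 had 87.1 ± 6.27 CPM with imiquimod at 6 h and 6.31 ± 0.348 CPM with vehicle of the same time, but 35.9 ± 0.485 CPM in vehicle cells at 0 h. Trp53inp1 had 17.9 ± 1.68 CPM with imiquimod and 146 ± 9.88 CPM with vehicle at 6 h. Vmp1, a lipid scramblase of the endoplasmic reticulum, rose by 1.98 and 1.70, and Stx17, the fusion SNARE, fell by 1.24 at 16 h. Atg9b, the paralog of Atg9a, had 5 counts with imiquimod and 63 with vehicle at 6 h.

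Of 32 genes that control mTORC1 and AMPK, 12 were higher and 16 lower at 6 h, and 8 were higher and 12 lower at 16 h, with medians of -0.12 and -0.11. The shares higher, 37.5% at 6 h and 25% at 16 h, stood against 37.7% and 39.1% of all genes, and the shares lower, 50% and 37.5%, against 39.2% and 38.1%. Deptor, an inhibitor bound to mTOR, had 0.228 ± 0.112 CPM with imiquimod at 6 h and 12.3 ± 2.44 CPM with vehicle. These were 7 counts with imiquimod and 469 with vehicle over 3 libraries, and at 16 h there were 11 counts with imiquimod and 303 with vehicle. Rragb, a Rag GTPase, fell by 2.42 and Lamtor4, a Ragulator subunit, by 2.35 at 6 h. Prkag2, an AMPK subunit, changed by -1.76 and -1.84 at 6 h and 16 h, and Fnip2, a folliculin partner, fell by 2.21 at 16 h. Prkaa2, the AMPK alpha 2 subunit, had 41 counts with imiquimod and 7 with vehicle at 16 h.

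Of 28 lysosomal genes of the CLEAR network, 11 were higher and 14 lower at 6 h, and 8 were higher and 18 lower at 16 h, with medians of -0.38 and -0.42. Of the list 39.3% were higher and 50% lower at 6 h, beside 37.7% and 39.2% of all genes, and 28.6% and 64.3% at 16 h, beside 39.1% and 38.1%. Sgsh and Naglu, enzymes of heparan sulfate breakdown, fell by 4.51 and 1.67 at 6 h, and Gusb, beta-glucuronidase, by 2.20. Psap, the saposin precursor, was abundant at 1541 ± 36.4 CPM with imiquimod at 16 h and 6525 ± 66.1 CPM with vehicle, and fell by 2.08. The protease gene Ctsf had 3 counts with imiquimod and 29 with vehicle at 6 h, a ratio of 0.128 (exact 95% interval 0.025 to 0.413), and 1 count with imiquimod and 39 with vehicle at 16 h, a ratio of 0.0219 (0.00054 to 0.129). Atp6v0d2, a subunit of the proton pump, had 6 counts with imiquimod and 61 with vehicle at 16 h.

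**Figure D4:**
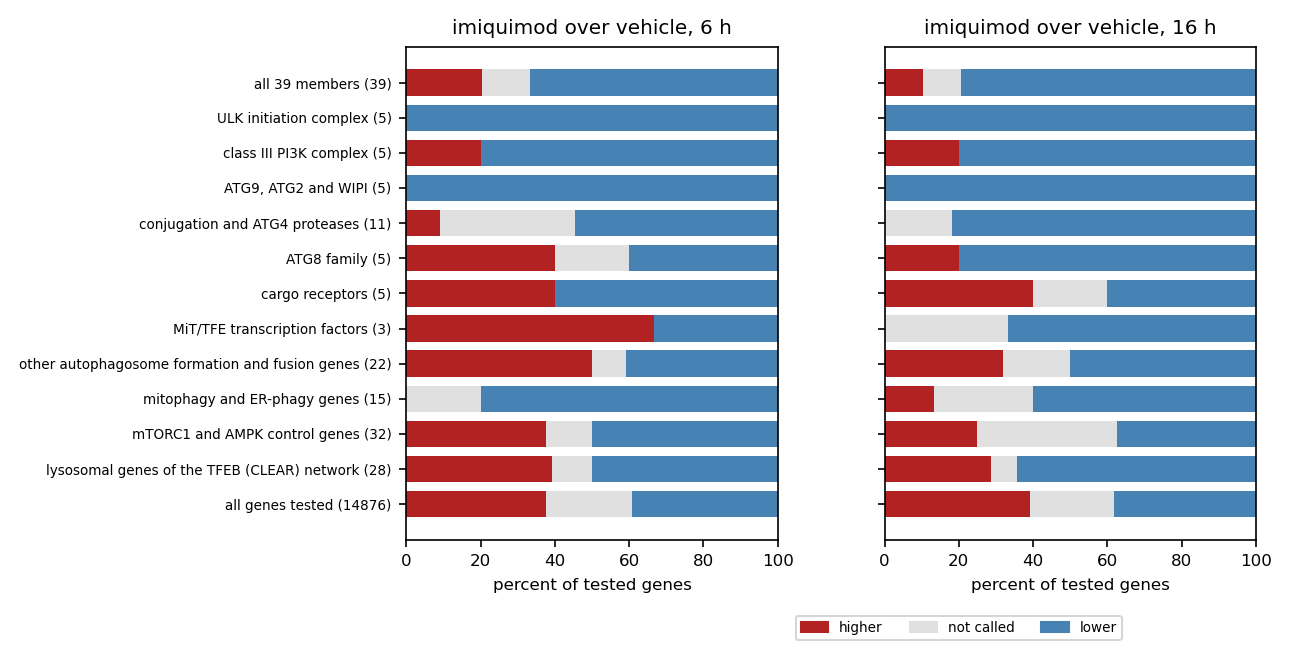
Percent of the tested genes of each role and pathway list that were higher, not called or lower with imiquimod at 6 h (left) and 16 h (right), with the number of genes in brackets and all tested genes in the lowest bar. All ULK and all ATG9, ATG2 and WIPI genes were lower at both times.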

How the data were processed

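RNA-seq counts of 18 libraries in 6 groups of 3 were analysed. The deposited values are raw whole-number counts per gene made by the authors, and total counts per library ran from 10609741 to 13447018. Per the submitters' processing notes, STAR and mm10 were used. The aligner version, counting program, strand setting and annotation release are not given in the sources used here. Reads shared with a copy or an antisense gene can therefore move a count, and members with over 1% of 75-base exon windows in other genes (6) or over 10% of exon length under an antisense gene (5) are marked. Coordinates and exon lengths come from GENCODE M21 (GRCm38), in which 97.8% of identifiers were found.

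One quasi-likelihood fit in edgeR 4.0.16 (R 4.3.3) held all 6 groups, after filterByExpr with a minimum count of 10 and TMM scaling, with robust dispersions and Benjamini-Hochberg adjustment over 14876 genes. Common dispersion was 0.000951. CPM values are TMM-scaled. The standard error is the absolute log2 fold change over the square root of F, and it understates the error where a large change rests on few counts. The fit was tested on simulated data in which a small part of the genes changed in the imiquimod group at 6 h, as many up as down. That simulation cannot test the scaling on which the 6 h counts depend. Alternatives were DESeq2 size factors, library totals, a replicate block, no filter on low counts, at least 1 CPM in 3 libraries as the filter, only the groups compared, DESeq2 1.42.0 and each library left out in turn.

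The members and lists were chosen with earlier results of these data known. Values in every library are given for members called with a change of at least 2-fold, with some others chosen after their values were seen (Becn1, Atg16l1, Map1lc3b, Tax1bp1, Tfeb and Tfe3). In each pathway list the 4 largest called changes at 6 h and at 16 h were eligible. Counting intervals are exact and cover counting error only. One gene of the mitophagy and ER-phagy list is not reported here by name.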

Additional observations from a re-analysis of the deposited data

Results flagged for a closer look

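The effect of imiquimod differed between 6 h and 16 h, by the interaction test in edgeR, for 26 members (66.7%). It was more positive at 16 h for 9 (23.1%), against 28.5% of all genes, and more negative for 17 (43.6%), against 28.4%. Of these differences, 11 were at least 0.5 on the log2 scale (16 h minus 6 h). They were -2.41 for Map1lc3a, -1.34 for Sqstm1, -1.33 for Optn, -0.92 for Gabarap, -0.85 for Tfeb, -0.84 for Calcoco1 and -0.57 for Tfe3, and 0.59 for Gabarapl1, 0.79 for Atg4c, 0.91 for Atg10 and 1.09 for Atg2b. Map1lc3a and Tfeb were called in opposite directions at the 2 times. The other 15 called differences lay between -0.48 and 0.49. The share of all genes with a called difference of at least 0.5 was not counted, so the 11 has no background beside it. At the 2-fold level there were 4 members (10.3%), against 18.5% of all genes. With 3 libraries in a group, no test for a single library far from the others was made.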

How the results depend on the processing

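Results were recomputed under 7 other settings and with each of 18 libraries left out. Of 3276 alternative values for the members, 3037 kept direction and side of the threshold, 103 lost a call, 33 gained one and 11 changed sign with a call in one or both fits. The other 92 changed sign with no call in either fit, 67 of them without 1 library. Of these 92, those in the comparisons of imiquimod with vehicle were Atg16l1 and Gabarapl2 at 6 h and Atg4a at 16 h. The 25 values of at least 2-fold, from 16 members, kept their direction and their call in all 349 alternative values. Their size did not always stay at 2-fold. By library totals Gabarap at 6 h was 0.72 and the difference of Optn between the times was -0.998. Without 1 library, 13 to 16 members were called and changed at least 2-fold at 6 h, and 6 to 8 at 16 h.

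The 11 sign changes of called values came from scaling by library totals, which moves every gene at 6 h by about the same amount. At 6 h they were Atg12 (-0.27) and Atg16l1 (-0.31), and for the difference between the times Ulk2 (0.22), Rb1cc1 (0.19), Becn1 (0.16), Uvrag (0.17), Atg3 (0.15), Atg4b (0.28), Atg12 (0.019), Atg16l1 (0.16) and Gabarapl2 (0.019). Under that scaling 23 differences were more positive (9 with TMM), against 46.7% of all genes, and 7 more negative (17 with TMM), against 15.2%.

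Without 1 library the differences called ranged from 8 to 11 more positive and from 12 to 16 more negative. Members lower ranged from 25 to 26 at 6 h and from 29 to 31 at 16 h, with 8 and 4 higher in every case. In vehicle cells they ranged from 14 to 16 higher and 6 to 8 lower at 6 h, and from 14 to 16 higher and 5 to 7 lower at 16 h. With a replicate block the counts were 8 higher and 26 lower at 6 h, 4 and 31 at 16 h, and 9 more positive and 16 more negative differences. No clear pairing by replicate number was seen: none of 45 pairs had a correlation over 0.1 (-0.0728 to 0.0398), and 15 of 45 correlated best with their own number. This check cannot exclude a weak pairing, since a small shared effect could leave correlations this low. The lowest member count in a library was 10, so changes of Wipi1, Map1lc3a and Atg10 rest on few counts.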
